A study of Mus musculus with 43 samples.

Results

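The sirtuins are the mouse genes Sirt1 to Sirt7, and their levels were examined in 4 tissues of wildtype (WT) and insulin receptor substrate 1 knockout (KO) mice that were fed ad libitum (AL) or kept on dietary restriction (DR). Members were chosen by gene name from the deposited gene table. Of the 7 names, 6 had an entry of their own among 42349 entries, and Sirt7 was listed only inside 1 entry that joins 4 genes. None of 96 sirtuin tests between genotypes or diets within a tissue passed, where 0.692% of the tests of all entries did. The smallest adjusted p among them was 0.19 by the Wald test. The median difference needed to pass was 4.46-fold or more for each sirtuin, so this does not show that a sirtuin stayed the same. Between tissues 7 of 144 sirtuin tests passed, against 27.4% of all entries, and these 7 fell to 0 when the t distribution was used. Of them, 3 were of Sirt4, which was higher in liver or brain than in adipose tissue, 3 of Sirt6, which was higher in brain than in liver or muscle, and 1 of Sirt2. Sirt3 had its highest values in liver, without passing.

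Messenger RNA was sequenced from 4 tissues of female mice 15 months old, namely liver, brain, skeletal muscle and the inguinal depot of white adipose tissue (WAT). The 4 conditions were WT_AL, WT_DR, KO_AL and KO_DR. DR was brought in by steps from 10 weeks of age up to 30% less food than AL mice ate, and the mice had spent 12 months on it. The KO is global, so all tissues carry it, and WT_AL is the control for both the genotype and the diet. The labels list 43 libraries, 2 for each WT_AL group and for WT_DR WAT and 3 for each other group, and the table holds 1 pooled value per group, so that 16 group values exist per gene and the spread between single mice cannot be seen.

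Levels are given in FPKM, fragments scaled by transcript length and by the size of the library, so that genes can be compared with each other. Each value came with the authors' 95% interval, whose upper bound was read as lying 2 standard deviations (SD) above the value. The median SD over all entries was between 27.2% of the FPKM, in WT_DR brain, and 62.3%, in WT_DR WAT, and 12989 to 15181 entries per group reached an FPKM of 1. Read totals were not analysed here, so the depth is unknown. The marker lists of the 4 sampled tissues followed the labels, while some lists of other cells did not keep to 1 tissue. The summed level of 8 liver markers was 57796 to 142204 FPKM in liver, that of 8 muscle fibre markers 90662 to 134624 in skeletal muscle, that of 7 neuron markers 1186 to 1759 in brain, and that of 7 adipocyte markers 13588 to 22458 in WAT. Markers of other cells also appeared, with adipocyte markers at 398 to 1466 in skeletal muscle and liver markers at 1532 to 1707 in WAT. The 4 astrocyte markers summed to 182 to 332 FPKM in liver and 256 to 329 in brain. The 6 mammary epithelium markers summed to 234 to 327 FPKM in liver and 16.8 to 127 in WAT. In liver 2 markers of each of these lists were at 1 FPKM or more. The 5 brown and beige fat markers summed to 580 to 1239 in skeletal muscle, above their 46.6 to 136 in WAT. Only 2 of the 5 were at 1 FPKM or more in WT_AL and WT_DR muscle, and 4 in KO_AL and KO_DR muscle. Which cells this sum in muscle came from was not tested. The part of other cells in the sirtuin values was not tested.

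The level of the targeted gene did not follow the labels, as a description of group values without a test. In 7 of the 8 comparisons Irs1 was no lower in mice labelled KO than in WT, and its 16 values ran from 1.62 to 6.56 FPKM. Which part of the gene was removed is not given in the sources used here, and reads from a part that remains would check nothing. KO_AL and KO_DR therefore stand throughout for the groups so labelled. Each genotype direction below rests on the labels, which these values could not check. The authors report that the mice were genotyped by an earlier protocol.

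Sirtuins are enzymes that remove acetyl and other acyl groups from lysines, and they consume NAD in doing so, which ties their activity to the cell's energy state. SIRT1, SIRT6 and SIRT7 act mainly in the nucleus, SIRT2 mainly in the cytosol, and SIRT3, SIRT4 and SIRT5 in mitochondria. The family has long been studied for its links to calorie restriction, insulin action and ageing. Much of its control lies in NAD supply and in the proteins, which transcript levels do not show.

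The annotation around Sirt2, Sirt3 and Sirt7 bears on how their values can be read. In the GENCODE annotation of GRCm38, Sirt2 (chr7:28766735-28788661, plus strand) overlaps Nfkbib, an inhibitor of NF-kappa-B, by 778 bases on the opposite strand. Sirt3 (chr7:140863666-140882309, minus strand) overlaps Ric8a, listed as Ric8 in the table, by 707 bases at one end and Psmd13, a proteasome subunit, by 342 bases at the other, both on the opposite strand. Sirt7 (chr11:120618372-120625240, minus strand) overlaps Mafg, a small Maf transcription factor, by 124 bases on the same strand, and these are 2 of the 4 genes in the joined entry. Whether reads were counted by strand is not given in the sources used here, so reads in the overlaps on opposite strands may not have been told apart. Sirt1 (chr10:63319005-63381704), Sirt4 (chr5:115478010-115484725) and Sirt6 (chr10:81621785-81627797) lie on the minus strand, and Sirt5 (chr13:43365496-43395203) on the plus strand. For these sirtuins overlaps with other genes were not looked for, so their values are not known to be free of them. Gm16145, listed in the same locus as Sirt1, reached at most 0.051 FPKM, in brain of KO_DR.

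Sirt2 and Sirt3 each start back to back with a neighbour in RefSeq, and the stretches between the start sites are shown because the neighbours' levels are compared with them below. Each reads 5′ to 3′ on the sirtuin's strand, from GRCm38.p6, with capitals for a match to the ETS core motif. The first is 107 bases long, chr7:28766645-28766751, plus strand, 51.4% G or C, inside the GENCODE span of Nfkbib. The second is 84 bases long, chr7:140882310-140882393, minus strand, 69.0% G or C, inside the GENCODE span of Psmd13.
Sirt2 and Nfkbib: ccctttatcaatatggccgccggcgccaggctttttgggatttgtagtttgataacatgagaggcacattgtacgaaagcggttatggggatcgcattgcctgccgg
Sirt3 and Psmd13: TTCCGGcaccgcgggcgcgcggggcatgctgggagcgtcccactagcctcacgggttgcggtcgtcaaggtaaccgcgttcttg
The letters of the ETS core motif, CCGGAA, were searched on both strands. The only match in either stretch opens the second one, at the end beside the Psmd13 start and away from the Sirt3 start. In the promoter windows of RefSeq, which hold 300 bases from 250 before to 50 after a start, the ETS core is found in 14.9% of 32851 promoters. The GC box, with the letters GGGCGG searched in the same way, is found in 35.7% of those promoters. The E-box was searched as CACGTG and is found in 7.15% of them. Of the sirtuin windows, GC boxes were found in those of Sirt1 (7, some of which overlap), Sirt3 (4 in one of its windows) and, with 1 each, Sirt2, Sirt5, Sirt6 and Sirt7. ETS cores were found in windows of Sirt3, Sirt4, Sirt6 and Sirt7, and E-boxes only in that of Sirt1, with 2, while neither the GC box nor the E-box fell in the stretches shown. A match of this kind is a description of letters, not a bound site.

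Sirt1 deacetylates histones and transcription factors such as p53, PGC-1alpha and the FOXO proteins, and it had the lowest level of the 6 sirtuins in 11 of 16 groups. In liver Sirt1 was at 3.19 FPKM in WT_AL, 3.81 in WT_DR, 2.35 in KO_AL and 3.89 in KO_DR. In skeletal muscle the same 4 conditions gave 5.59, 3.16, 3.35 and 1.97. WT_AL muscle was the highest of all 16 Sirt1 values, 3.75-fold above the lowest, and every other muscle group lay below it. Brain values were 1.79 in WT_AL, 2.57 in WT_DR, 1.85 in KO_AL and 1.501 in KO_DR. WAT values were 2.69, 2.07, 3.32 and 1.49 in that order. Sirt1 thus stayed between 1.49 and 5.59 FPKM everywhere, with a median SD of 31.3% of the value, and its median rank placed it above only 18.8% of the expressed entries of a group.

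Sirt6, a chromatin enzyme with roles in DNA repair, telomeres and the restraint of glycolytic genes, was also low but tended towards brain. Its liver levels were 2.91 FPKM in WT_AL, 2.30 in WT_DR, 3.04 in KO_AL and 2.49 in KO_DR. Skeletal muscle gave 2.64, 2.27, 4.45 and 2.99. The liver and muscle values overlapped, apart from KO_AL muscle, which was above all of liver. The brain levels were 4.54, 6.58, 6.19 and 9.16 FPKM, with the highest in KO_DR. WAT had 3.81, 2.39, 5.18 and 4.66. The brain values lay above all 8 values of liver and skeletal muscle, narrowly for WT_AL brain (4.54) against KO_AL muscle (4.45). They were above those of WAT except that WT_AL brain was below KO_AL and KO_DR WAT. The share of all entries with this order is not given here, but 20.9% of 20227 expressed entries had all 4 brain values above the 12 of the other tissues, which Sirt6 did not. The median SD of Sirt6 was 45.8% of the value, and the authors' interval reached 0 in 5 of 16 groups.

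Sirt7, a nucleolar enzyme linked to ribosomal RNA synthesis, had no value of its own. The joined entry that holds Sirt7, Mafg, Mir6936 and AL663030.1 read 99.1 to 150.0 FPKM in liver, 39.0 to 80.7 in skeletal muscle, 49.4 to 82.4 in brain and 27.8 to 54.6 in WAT. How much of this is Sirt7 could not be separated, so the joined entry was left out of the counts of sirtuins below.

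Sirt2, a cytosolic deacetylase of tubulin and other proteins that is abundant in myelinating oligodendrocytes, was the most abundant sirtuin in 12 of 16 groups. Its liver levels were 69.96 FPKM in WT_AL, 47.1 in WT_DR, 84.9 in KO_AL and 74.4 in KO_DR. Skeletal muscle gave 42.6, 54.9, 74.9 and 82.6. In muscle both KO groups were above both WT groups, while in liver only WT_DR stood below the others. These orders are descriptions, without the share of all entries that have them. Brain levels were 31.6, 40.9, 79.6 and 47.3, and KO_AL was the highest of the 4. WAT levels were 64.6, 130.9, 39.7 and 67.9, and WT_DR, with 2 libraries and an SD of 38.7% of the value, was the highest of all 16. Sirt2 made up a median of 49.4% of the summed FPKM of the 6 sirtuins, from 28.2% to 77.3%. The 9 oligodendrocyte markers, all at 1 FPKM or more in every brain group, summed to 6054 FPKM in WT_AL brain, 2645 in WT_DR, 6045 in KO_AL and 5976 in KO_DR, and the 4 Sirt2 values of brain had overlapping 95% intervals. The 5 red blood cell markers, all at 1 FPKM or more in every group, summed to 950, 1553, 11582 and 20283 FPKM in skeletal muscle, in the order of conditions used above, and to 1032, 971, 9907 and 3475 in brain. In liver they summed to 2681, 3469, 13569 and 12047, and in WAT to 6863, 12269, 4297 and 21030. In muscle this sum had the same order over the 4 groups as Sirt2. The part of these cell types in the Sirt2 values was not tested. In whole tissue, fewer cells of a type and less RNA per cell cannot be told apart.

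**Figure D1:**
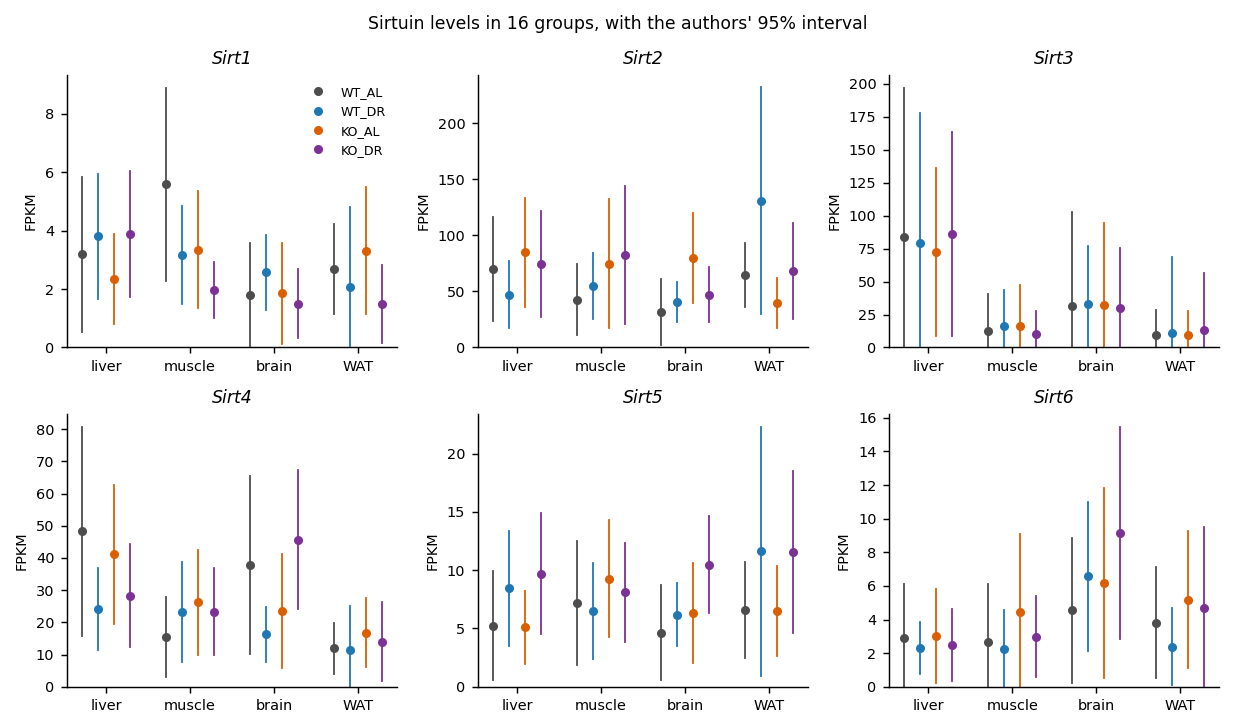
Levels of the 6 sirtuins in FPKM (vertical axis) in 16 groups, by tissue and, in colour, by condition. Points are the deposited group values and lines the authors' 95% intervals, cut at 0. Sirt3 stands at 72.5 to 86.2 FPKM in liver and at most at 32.6 elsewhere, with intervals that reach 0 in 14 of 16 groups, while Sirt1 and Sirt6 stay under 10 FPKM in every group.

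Sirt3, the main deacetylase of the mitochondrial matrix, showed the widest range, 9.36-fold from its lowest to its highest group. Liver levels were 83.4 FPKM in WT_AL, 79.2 in WT_DR, 72.5 in KO_AL and 86.2 in KO_DR. Brain levels were 31.6, 32.6, 32.3 and 29.7. Within either tissue the 4 conditions were close together, and no brain value came near a liver value. Skeletal muscle gave 12.5, 16.5, 16.5 and 9.85 FPKM, and WAT gave 9.20, 10.9, 9.23 and 13.1. The 4 liver values of Sirt3 lay above all 12 values of the other tissues, which held for 10.7% of the 20227 expressed entries and for no other sirtuin. This order is a description without a test. The authors' SD for Sirt3 was large, with a median of 93.2% of the value and a range from 43.9% to 267%, although the 4 group values of a tissue differed far less from each other than these SDs.

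Sirt4, which acts in mitochondria on glutamate dehydrogenase and other enzymes of amino acid and fatty acid use, ranged from 11.5 to 48.3 FPKM. Liver levels were 48.3 FPKM in WT_AL, 24.2 in WT_DR, 41.2 in KO_AL and 28.2 in KO_DR. In liver both AL groups were above both DR groups, a description without the share of all entries with this order. Brain levels were 37.8, 16.3, 23.5 and 45.6, with WT_DR lowest and KO_DR highest. Skeletal muscle gave 15.5, 23.2, 26.3 and 23.4, and WAT gave 11.9, 11.5, 16.7 and 13.9. All WAT values but that of KO_AL were below every other Sirt4 value, and the KO_AL value lay just above the lowest of brain and of muscle.

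Sirt5, which removes succinyl, malonyl and glutaryl groups from mitochondrial enzymes such as carbamoyl phosphate synthetase, varied least over the 16 groups, 2.50-fold from lowest to highest. Liver levels were 5.25 FPKM in WT_AL, 8.44 in WT_DR, 5.09 in KO_AL and 9.72 in KO_DR. Brain levels were 4.65, 6.18, 6.33 and 10.5, and WAT levels were 6.59, 11.6, 6.51 and 11.6. In liver and WAT both DR groups were above both AL groups, and in brain each DR group was above the AL group of its genotype. Skeletal muscle went the other way, with 7.21 in WT_AL, 6.49 in WT_DR, 9.29 in KO_AL and 8.10 in KO_DR. These orders are descriptions, without the share of all entries that have them, and the tests of the differences follow.

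Ranked within a group, the 3 most abundant sirtuins were Sirt2, Sirt3 and Sirt4 in 15 of 16 groups. The exception was WT_DR WAT, where Sirt5 came above both Sirt3 and Sirt4. Sirt3 was the highest in liver of WT_AL, WT_DR and KO_DR, and Sirt4 in WT_AL brain. Sirt6 was the lowest where Sirt1 was not, in 5 groups. Neighbours in this order often lay within each other's intervals. In WT_AL brain, for example, Sirt4 at 37.8 FPKM, Sirt3 at 31.6 and Sirt2 at 31.6 could not be ranked.

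Differences between groups of 1 tissue were tested as the log2 ratio of FPKM, with a standard error (SE) derived from the authors' intervals, by the Wald test (two-sided), with p-values adjusted by Benjamini-Hochberg over every entry tested in that tissue and comparison and a false discovery rate (FDR) of 10%. The test was approximate, since it used 1 pooled value and interval per group. An entry was tested where both values were above 0 with status OK and at least 1 was at an FPKM of 1 or more, which all 6 sirtuins met in all groups.

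KO_AL against WT_AL asked what loss of IRS1 changed under AL feeding. None of the 24 sirtuin tests passed by the Wald test, and none had an unadjusted p under 0.05, where 0.316% of all entries tested passed in liver, 0.681% in skeletal muscle, 0.203% in brain and 1.29% in WAT. The largest sirtuin difference was that of Sirt2 in brain, 79.6 against 31.6 FPKM, a log2 difference of 1.33 with an SE of 0.77 and an unadjusted p of 0.082. Its 95% interval ran from -0.17 to 2.84, so neither no difference nor a large one was outside it. Sirt2 was at 0.81 in skeletal muscle (SE 0.77) and 0.28 in liver, and at -0.70 in WAT (SE 0.52). In skeletal muscle Sirt1 differed by -0.74 (SE 0.61), Sirt4 by 0.76 (SE 0.74) and Sirt6 by 0.75 (SE 1.21), all within 2 SE of 0.

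WT_DR against WT_AL asked what the diet changed in wildtype mice. Again 0 of 24 sirtuin tests passed, with 0 at an unadjusted p under 0.05, against 0.236% of all entries in liver, 1.4% in skeletal muscle, 0.224% in brain and 0.57% in WAT. Sirt4 differed most. It was lower under DR in brain, by a log2 difference of -1.21 (SE 0.65, unadjusted p 0.062), and in liver, by -0.997 (SE 0.62, unadjusted p 0.11). Sirt2 in WAT was 1.02 higher (SE 0.64), in the group with 2 libraries and the widest intervals. Sirt1 in skeletal muscle was at -0.82 (SE 0.57).

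KO_DR against WT_DR compared the genotypes on the restricted diet. Here too 0 of 24 sirtuin tests passed, with 1 at an unadjusted p under 0.05, against 0.288% of all entries in liver, 2.23% in skeletal muscle, 1.16% in brain and 0.283% in WAT. That 1 was Sirt4 in brain, 45.6 against 16.3 FPKM, a log2 difference of 1.49 with an SE of 0.51, an unadjusted p of 0.0035 and an adjusted p of 0.19. The median of all entries in this comparison stood at 0.23, and relative to it the Sirt4 difference was 1.26. A log2 difference of 1.66 would have been needed to pass. Sirt5 in brain was also higher in KO_DR, by 0.76 with an SE of 0.43 and an adjusted p of 0.76. WT_DR brain is the group with the low oligodendrocyte marker sum given above, and the part of this in the Sirt4 and Sirt5 values was not tested.

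KO_DR against KO_AL asked what the diet changed without IRS1. None of 24 sirtuin tests passed and none had an unadjusted p under 0.05, against 0.611% of all entries in liver, 0.5% in skeletal muscle, 0.365% in brain and 0.707% in WAT. Sirt1 in WAT was lower by a log2 difference of -1.16 (SE 0.81), and Sirt4 in brain was higher by 0.96 (SE 0.64). For Sirt4 in brain the diet difference thus had opposite signs in the genotypes. Sirt5 was higher under DR by 0.93 in liver (SE 0.59), 0.73 in brain (SE 0.56) and 0.83 in WAT (SE 0.61), and in wildtype mice by 0.68 (SE 0.77), 0.41 (SE 0.71) and 0.82 (SE 0.80). In skeletal muscle it stood at -0.20 (SE 0.54) in KO and -0.15 (SE 0.70) in WT. None of these 8 values of Sirt5 was beyond 2 SE of 0.

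**Figure D2:**
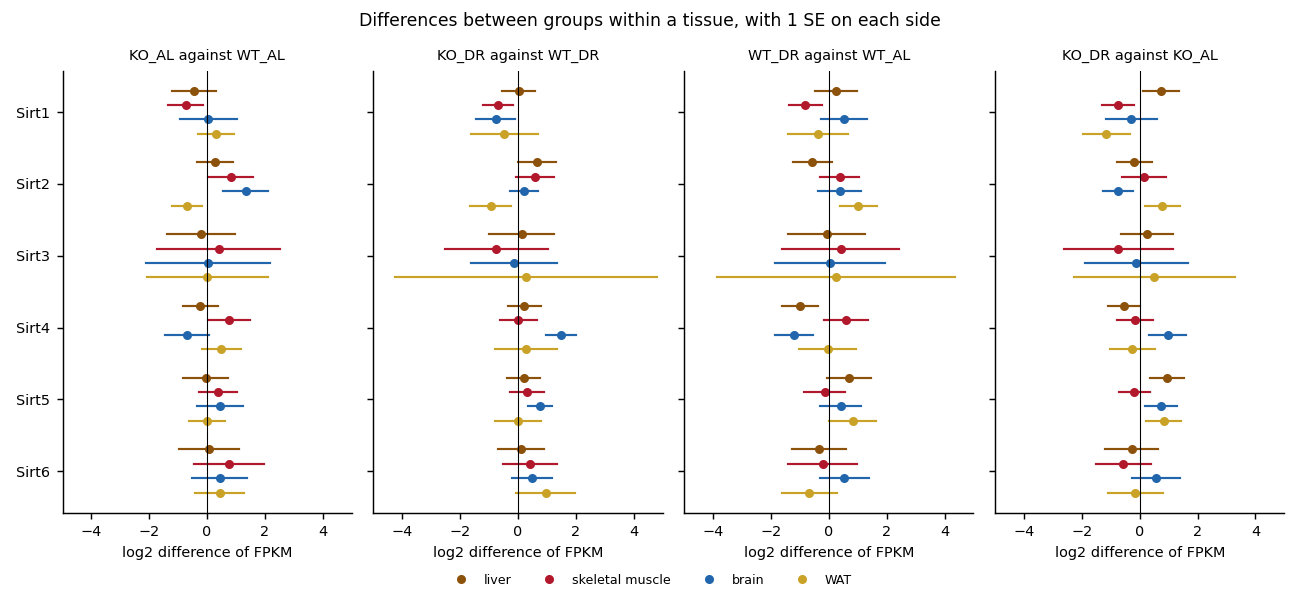
Log2 differences of FPKM (horizontal axis) for each sirtuin in the 4 comparisons within a tissue, with tissues in colour and lines of 1 SE on each side. No difference passed the FDR of 10%, Sirt4 in brain in KO_DR against WT_DR (1.49) is the farthest from 0 in units of its SE, and the longest line of each comparison is one of Sirt3.

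The interaction of genotype and diet, which asks whether the genotypes differed by another amount on DR than on AL, passed for 0 of 24 sirtuin tests, with 1 at an unadjusted p under 0.05, against 0.086% of all entries in liver, 0.371% in skeletal muscle, 0.396% in brain and 0.121% in WAT. That test was Sirt4 in brain, with an interaction of 2.17 on the log2 scale, an SE of 0.92, an unadjusted p of 0.018 and an adjusted p that rounds to 1. The test shares its groups with the comparisons above and is not a separate piece of evidence. Whether a sirtuin's difference in 1 tissue differed from that in another was tested too, a choice made after the values were seen. It passed in 0 of 144 tests, with 1 at an unadjusted p under 0.05, where 0.131% of all entries passed over the same fits.

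The size that these tests could call was large. To pass the FDR of 10% in its comparison, the median difference needed was 4.46-fold for Sirt5, 4.76-fold for Sirt2, 5.15-fold for Sirt4, 5.53-fold for Sirt1, 9.30-fold for Sirt6 and 94.8-fold for Sirt3. The SE behind these sizes is an approximation that is poor where the SD is near the value itself. The SD of Sirt3 had a median of 93.2% of the value, so its 94.8-fold is nominal only. Only 5 of the 96 differences reached 2-fold, and none of those was of Sirt3, Sirt5 or Sirt6. A change of less than 2-fold in any sirtuin was therefore not detectable here, and nothing in these values shows that a sirtuin stayed the same. For 94 of the 96 tests the adjusted p rounded to 1.

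**Figure D3:**
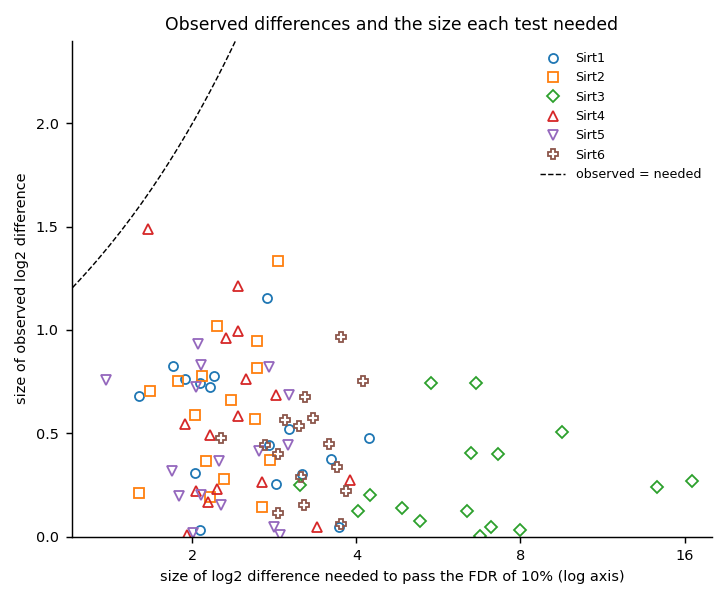
The size of each of the 96 observed log2 differences (vertical axis) against the size that its test needed to pass the FDR of 10% (horizontal axis, log scale), with 1 symbol per sirtuin. The dashed line marks where both are equal, all points lie to its right, and Sirt3 lies farthest from it, with a median needed log2 difference of 6.57, a nominal value given its large SDs.

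Tissues were compared within the same condition. Of 144 tests, from 6 pairs of tissues in 4 conditions, 7 passed, which is 4.86% against 27.4% of all entries over the 24 fits, and 12 had an unadjusted p under 0.05. Over the 4 conditions, 26.9% of all entries passed between liver and skeletal muscle, 35.9% between liver and brain, 20.4% between liver and WAT, 34.6% between skeletal muscle and brain, 19.8% between skeletal muscle and WAT and 26.5% between brain and WAT. The share of sirtuin tests that passed was lower than this background for the pooled count.

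Sirt4 accounted for 3 of the 7. It was higher in liver than in WAT in WT_AL, by a log2 difference of 2.02 (SE 0.68, adjusted p 0.023), and in all 4 conditions the liver value was above that of WAT, by 1.02 to 2.02. It was higher in brain than in WAT in WT_AL, by 1.67 (SE 0.72, adjusted p 0.080), and in KO_DR, by 1.71 (SE 0.72, adjusted p 0.066). Both of the WT_AL tests use the same WT_AL WAT value, so they are not separate pieces of evidence. The brain value was above that of WAT in the other conditions as well, the smallest difference being 0.49.

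Sirt6 accounted for another 3. It was lower in liver than in brain in WT_DR, by a log2 difference of -1.52 (SE 0.69, adjusted p 0.070), and in KO_DR, by -1.88 (SE 0.80, adjusted p 0.048). It was lower in skeletal muscle than in brain in KO_DR, by -1.62 (SE 0.77, adjusted p 0.086). Both of the KO_DR tests use the same KO_DR brain value, so they are not separate pieces of evidence. For both pairs of tissues the brain value was the higher one in 4 of 4 conditions. Whether the tissue difference of Sirt6 varied with diet was among the 144 tests of differences between tissues above, none of which passed.

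The last was Sirt2, lower in brain than in WAT in WT_DR, by a log2 difference of -1.68 (SE 0.64, adjusted p 0.050). This rested on the WT_DR WAT group with its 2 libraries, and in KO_AL the order was turned, with brain at 79.6 and WAT at 39.7 FPKM, a difference of 1.01. Sirt3 was higher in liver than in skeletal muscle by 2.14 to 3.13, than in WAT by 2.72 to 3.18 and than in brain by 1.17 to 1.54, in 4 of 4 conditions each, and none of these 12 tests passed. The SEs of Sirt3 were 1.29 to 3.95 in these tests. Neither Sirt1 nor Sirt5 passed in any of its 24 tests, with 1 and 0 of them at an unadjusted p under 0.05.

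**Figure D4:**
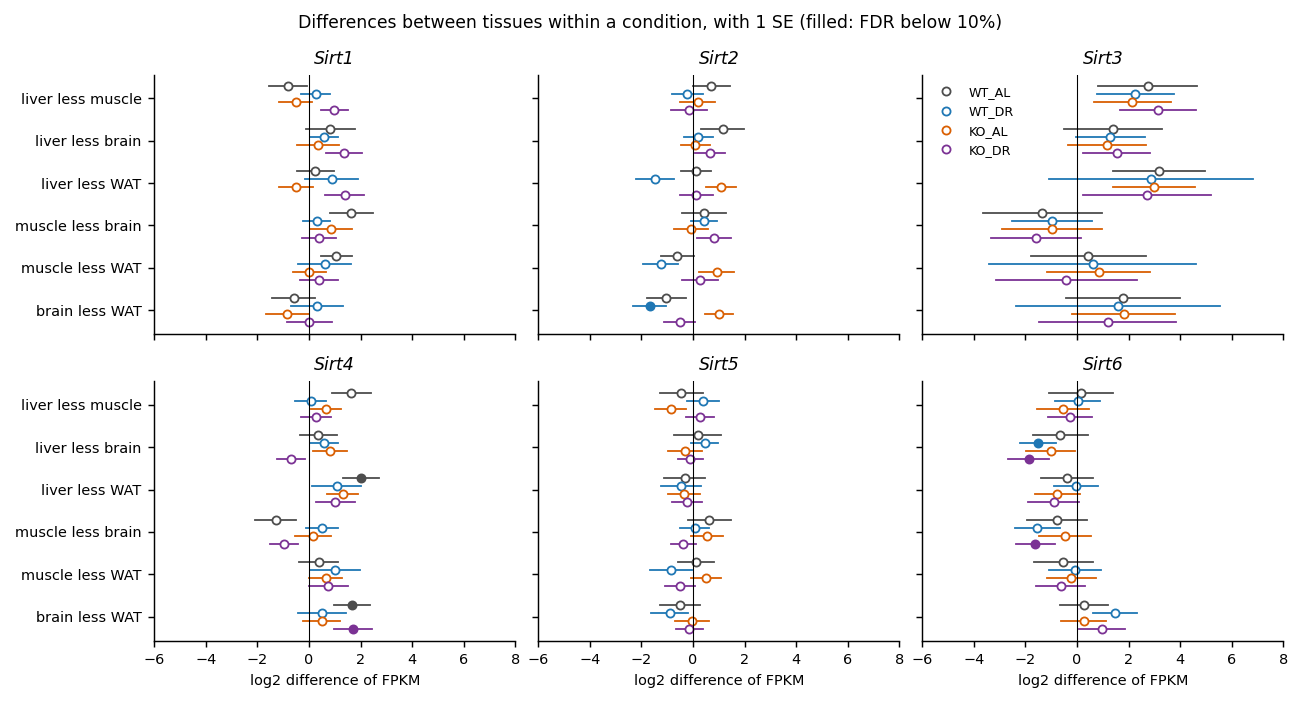
Log2 differences of FPKM (horizontal axis) between pairs of tissues for each sirtuin, by condition in colour, with lines of 1 SE on each side. Filled points passed the FDR of 10%: 3 for Sirt4, 3 for Sirt6 and 1 for Sirt2. The liver values of Sirt3 lie above those of all other tissues without passing.

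The neighbours of Sirt2 and Sirt3 were read in the same 16 groups. Nfkbib, whose start is separated from that of Sirt2 by the stretch shown above, ranged from 12.8 to 36.3 FPKM. On the scale of log2(FPKM + 1), Sirt2 and Nfkbib had a Pearson r of 0.72 over the 16 groups, and 0.83 after each tissue's mean was subtracted. Psmd13, on the other side of the stretch next to Sirt3, ranged from 17.5 to 167 FPKM and had an r of 0.14 with Sirt3, and Ric8, which has the larger overlap with Sirt3, had an r of 0.09. Gm15542, a processed pseudogene of the same locus, had an r of 0.83 with Sirt3, at 70.8 to 88.9 FPKM in liver, 54.6 to 74.4 in brain, 21.8 to 37.2 in WAT and 8.69 to 22.8 in skeletal muscle, but 0.22 after the tissue means were subtracted. The 16 points share tissues and groups of mice, and in each pair both genes were read from the same libraries, so these values are descriptions.

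**Figure D5:**
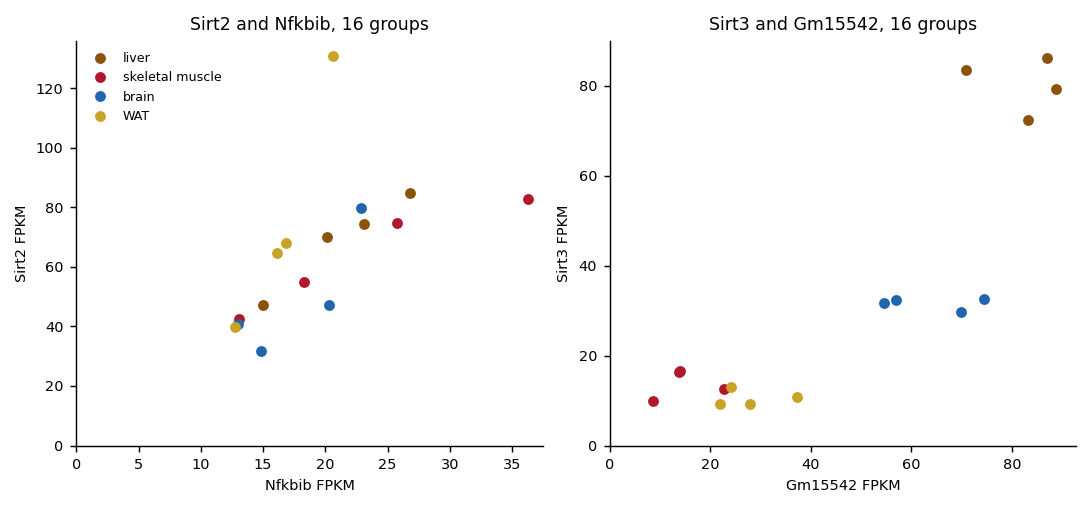
Left, Sirt2 against Nfkbib, and right, Sirt3 against Gm15542, both axes in FPKM, with 1 point per group and tissues in colour. Over the 16 groups Sirt2 had an r of 0.72 with Nfkbib on the log2 scale, its points spread by tissue along different slopes, and WT_DR WAT lies above the rest at 130.9 FPKM. The Sirt3 points fall into tissue clusters, with liver at 72.5 to 86.2 FPKM.

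Among the sirtuins themselves, Sirt3 and Sirt4 had the highest r of the 15 pairs, 0.70, and -0.04 once the tissue means were subtracted. The lowest r within tissues was that of Sirt1 and Sirt2, -0.55. Among 19489 single-gene entries with status OK in all 16 groups and an FPKM of at least 1 in some group, the 3 whose levels most resembled each sirtuin over the 16 groups were, for Sirt1, Ythdf3 (r of 0.91), Ascc3 (0.91) and Esco1 (0.89), and, for Sirt2, Tmem160 (0.85), Ppp1ca (0.84) and Nr1d1 (0.81). Those of Sirt3 were Tprkb, Prox1 and Slco1a4, each with an r of 0.98. Prox1 is a transcription factor of hepatocytes and other cells, and Slco1a4 is an organic anion transporter of liver and of brain vessels. Those of Sirt4 were Prr22 (0.90), H1f0 (0.90) and Sh2b1 (0.89), those of Sirt5 were Ccdc57 (0.72), Spata24 (0.72) and Rabac1 (0.71), and those of Sirt6 were Gipc2 (0.95), Gins3 (0.94) and Dnmt1 (0.93). With the tissue means subtracted, the single closest entry was Larp4 for Sirt1 (0.93), Csnk1g2 for Sirt2 (0.96), Cuzd1 for Sirt3 (0.84), Ado for Sirt4 (0.95), Lypd6 for Sirt5 (0.88) and Adamts8 for Sirt6 (0.90). These were picked as the highest over all entries from 16 points that share tissues, and are given without a test. Some lay near the floor. The highest group value was 1.47 FPKM for Gipc2, 1.68 for Gins3, 1.11 for Prr22, 1.33 for Adamts8 and 2.41 for Cuzd1.

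Sirtuins depend on enzymes that make NAD and compete with others that use it. Over the 4 comparisons and 4 tissues, 0.692% of all tests passed, which is the share to hold beside the counts of the lists. Of 17 genes of NAD synthesis, 16 had an entry of their own, and 0 of their 167 tests passed. Their median log2 difference ran from -0.55, in KO_DR against WT_DR in skeletal muscle, where the median of all entries was 0.04, to 0.51 in the brain of the same comparison, where that of all entries was 0.23. In that muscle comparison 4 of the 12 genes tested, Tdo2, Haao, Kmo and Kynu of tryptophan breakdown, passed the filter on low values only through WT_DR, at 8.18, 5.26, 1.16 and 1.02 FPKM, the summed liver markers stood at 2477 FPKM in WT_DR and 249 in KO_DR muscle, and their part in the median was not tested. These 4 genes were named after their values were seen. Of 15 genes that use NAD or dispose of nicotinamide, 14 had their own entry, and 1 of 182 tests passed, 0.549% against that 0.692%. It was Parp4, a poly(ADP-ribose) polymerase of vault particles, which was lower in KO_DR than in WT_DR skeletal muscle, at 2.63 against 5.07 FPKM (log2 difference -0.95, SE 0.26, adjusted p 0.023). Of the 7 regulators of SIRT1, 1 of 108 tests passed, or 0.926%. It was Elavl1, which encodes an RNA-binding protein that stabilises the Sirt1 transcript, lower in the same comparison and tissue, at 2.06 against 3.40 FPKM (log2 difference -0.72, SE 0.15, adjusted p 0.00026). Sirt1 itself differed there by 1.97 against 3.16 FPKM, which did not pass. The zinc-dependent deacetylases, a separate family with the same reaction on histones, passed in 0 of 155 tests, with 10 of 11 genes listed alone.

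Of the 5 tests that passed among genes whose proteins the sirtuins act on, 4 were in skeletal muscle, the tissue that held 42.0% of the 1608 tests that passed over all entries. Of 16 genes for mitochondrial substrates, 1 of 232 tests passed as higher and 2 as lower, 1.29% in all, with 0.692% over all entries. Cps1, the first enzyme of the urea cycle and a SIRT5 substrate, was at 0.0478 FPKM in WT_AL muscle, 2.79 in WT_DR, 0.0143 in KO_AL and 0.149 in KO_DR. Uox, urate oxidase, a SIRT5 substrate of the peroxisome rather than of mitochondria, was at 0.172, 22.5, 1.07 and 1.10 in the same order. For both genes WT_DR stood above the other muscle groups, and Cps1 met the filter of 1 FPKM only through WT_DR, so that its tests could be made only where that group was high. Cps1 passed as higher in WT_DR than in WT_AL (log2 difference 5.87, SE 1.21, adjusted p 0.00029) and as lower in KO_DR than in WT_DR (-4.22, SE 0.93, adjusted p 0.00075), and Uox passed in the latter comparison (-4.35, SE 1.42, adjusted p 0.096). These are genes of liver, and the summed level of the 8 liver markers in skeletal muscle moved with them, at 50.4 FPKM in WT_AL, 2477 in WT_DR, 140 in KO_AL and 249 in KO_DR, with all 8 at 1 FPKM or more in WT_DR and 6 of 8 in each other group. The part of liver RNA in these results was not tested.

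Of 14 genes for nuclear and cytosolic substrates, 12 were listed alone, and 2 of 184 tests passed, both as higher, 1.09% in all. Acss2, the cytosolic acetyl-CoA synthetase that SIRT1 activates, was at 15.9 FPKM in WT_AL WAT, 229 in WT_DR, 39.9 in KO_AL and 83.4 in KO_DR. It passed in WT_DR against WT_AL (log2 difference 3.85, SE 1.10, adjusted p 0.086), and WT_DR WAT has 2 libraries. The 5 brown and beige fat markers summed to 46.6, 136, 92.1 and 119 FPKM in the same WAT groups, with 3 to 4 of the 5 at 1 FPKM or more, and the 4 macrophage markers to 112, 37.4, 55.3 and 53.0, with all 4 at 1 FPKM or more, and their part in the Acss2 value was not tested. Pck1, the key enzyme of gluconeogenesis and also of glycerol synthesis in fat, was higher in KO_DR than in WT_DR skeletal muscle, at 174 against 50.5 FPKM (log2 difference 1.78, SE 0.57, adjusted p 0.087). Adipocyte markers summed to 1466 FPKM in KO_DR muscle and 398 in WT_DR muscle, with all 7 at 1 FPKM or more in both, and their part in the Pck1 value was not tested. The comparisons KO_DR against WT_DR and WT_DR against WT_AL share the WT_DR group, so a value particular to it enters both.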

How the data were processed

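The authors selected poly(A) RNA, sequenced it on an Ion Proton system, trimmed reads with cutadapt 1.5, aligned them to GRCm38 with BBmap and ran Cuffdiff 2.2.1. The deposited values are FPKM per gene and group, normalised by the authors across libraries by the geometric mean, with the bounds of a 95% interval and a status, and replicates were pooled. Values per library were not analysed here. From these values an SD was computed as the upper bound less the FPKM, divided by 2, the SE of a log2 ratio by the delta method, and a two-sided Wald p from the normal distribution. Adjustment was Benjamini-Hochberg over all entries tested in a tissue and comparison, at an FDR of 10%. The steps used Python 3.11.15, numpy 2.4.6, pandas 2.3.3 and scipy 1.17.1 and were tested on simulated data. The members, gene lists and tests were chosen with earlier results of these data known. Named genes are all sirtuins, the list genes that passed, and the entries of highest r. Of the listed genes, Afmid, Parp1, Nr1h3, Srebf1 and Hdac5 appear only in joined entries, and Adgre1 was read as Emr1. Of the lists chosen, 1 gene is not reported here.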

Additional observations from a re-analysis of the deposited data

How the results depend on the processing

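The tests were repeated at an FDR of 5%, by overlap of intervals in place of a test, from the t distribution, after adding 0.1 or 1 to each FPKM, without the filter or with one at an FPKM of 5, with a minimum of 2-fold, with centring on the median, without joined entries, and with the SD divided by the square root of the number of libraries. With that smaller SD, the sirtuin tests that passed became 2 in KO_DR against WT_DR (Sirt4 and Sirt5 in brain), 1 for the interaction (Sirt4 in brain) and 36 between tissues, where 48.3% of all entries passed. A smaller SD lowers the p of every entry. For the comparisons within a tissue, the share of all entries that passed with it is not given here. The 2 and the 1 are therefore not read as a result about Sirt4 or Sirt5. Between tissues the 7 became 3 at an FDR of 5%, 0 with the t distribution and 0 by intervals. The other counts of sirtuins that passed, over all comparisons, stayed within 1.5 times. None of the 91 single sirtuin differences tried changed sign. Most of the alternatives change only the p, the filter or the threshold and cannot turn a sign, so this says little about how firm the directions are. By Spearman correlation, none of the 3 closest entries was shared for Sirt2, Sirt3, Sirt5 and Sirt6. No paired analysis was possible because the table holds 1 pooled value per group, and for the same reason no library could be left out in turn. The width of the authors' intervals limits these results, most of all for Sirt3.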
